A study of Mus musculus with 23 samples.

Results

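Of 23 single neurons taken from the mouse arcuate hypothalamus, 4 had both Gad1 and Gad2 under 1 FPKM (fragments counted per kilobase of a transcript and relative to all mapped fragments of the library). These 4 cells are compared here with the other 19, which had at least 1 of both genes at or above 1 FPKM and are called Gad cells. The 4 cells were chosen by these measured values alone, so their low Gad1 and Gad2 is the definition of the set and not a result. They made up 17.4% of the cells (exact Clopper-Pearson 95% interval 4.95% to 38.8%, which covers counting error only). Among the Gad cells, 12 had both genes at 1 FPKM, 3 had Gad1 alone and 4 had Gad2 alone.

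All 23 cells came from young adult vGLUT2-IRES-Cre::loxSTOPlox-L10-GFP mice of mixed background, with 2 male donors according to the design text. In such mice Cre is made from the locus of the vesicular glutamate transporter VGLUT2, and it permanently switches on a GFP fused to a ribosomal protein, so a cell is labelled if it used that locus at any earlier time. Tissue was cut out under the microscope and digested with papain. GFP-positive neurons were picked by hand, and each was amplified by the SmartSeq2 method into 1 library. No treatment was given, and both sets of cells share genotype, tissue, age and method. Titles carry the prefix JCb5.2 (15 cells, numbered 1 to 15 here) or JCb6 (8 cells, numbered 16 to 23), which the labels do not explain. The 4 cells without Gad are cells 2 and 9 of JCb5.2 and cells 20 and 23 of JCb6. Since the labels tie no cell to a mouse, cells are not replicates, and every comparison is a description with no test.

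GABA, the main inhibitory transmitter, is made from glutamate by glutamate decarboxylase, whose forms are encoded by Gad1 and Gad2, and is loaded into vesicles by the transporter encoded by Slc32a1. Glutamate, the main excitatory transmitter, is loaded by vesicular transporters, of which VGLUT2, encoded by Slc17a6, is the usual one in the hypothalamus. Arcuate neurons are otherwise known by their peptides: Pomc and Cartpt in neurons that lower food intake, Agrp and Npy in neurons that raise it, and Kiss1, Tac2 and Pdyn in the kisspeptin neurons that drive gonadotropin release.

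In genes detected and in FPKM sum, the libraries of the 4 cells lay within the range of the others, while cell 20 was deeper than any of them. At or above 1 FPKM they held 6296 to 6880 genes (median 6623.5), against 4034 to 7988 (median 7136) in the Gad cells. FPKM sums over loci of 300 bp or more were 406971 to 481155 in the 4 cells and 344881 to 611675 in the 19. Among genes of such loci, cell 2 had 12262 listed at 0, the most of all 23 cells, against 10042 to 11848 in the Gad cells. Relative depth, estimated from the step size among low FPKM values and set to 1 in the shallowest library, was 1.59 to 4.21 against 1 to 3.30. Cell 17, a Gad cell of JCb6, had the fewest genes. Where a gene given below passed the limit for a difference only with cell 17, this is stated. Ranges, medians and differences include cell 17 unless stated otherwise. Cells 20 and 23 were the only 2 of 23 in which no Y-linked gene of the list (Ddx3y, Uty, Eif2s3y, Kdm5d) reached 1 FPKM, whereas the design text names male donors. Cells 20 and 23 held 0.123 and 0.0542 FPKM of Ddx3y, against 33.7 and 8.24 FPKM in cells 2 and 9. Xist, made from the inactive X chromosome, had 0.596 and 2.69 FPKM in cells 20 and 23, and also reached 1 FPKM in Gad cells 3, 11, 13 and 19. The values that chose the cells were 0.435, 0.480, 0.346 and 0.377 FPKM of Gad1 in cells 2, 9, 20 and 23, and 0.441, 0.761, 0.117 and 0.0443 FPKM of Gad2. The Gad cells with the lowest values were cell 7, with 2.56 FPKM of Gad1 and 0.621 FPKM of Gad2, cell 19, with 0.282 and 4.59 FPKM, and cell 1, with 8.46 and 0.543 FPKM.

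Cells without Gad were all rich in the vesicular glutamate transporter and held almost no transcript of the vesicular GABA transporter, which was also under 1 FPKM in most Gad cells. Slc17a6 (chromosome 7, 51621830 to 51671126, plus strand, mm10) was at 67.3 FPKM in cell 2, 51.0 FPKM in cell 9, 117 FPKM in cell 20 and 81.3 FPKM in cell 23. In the 19 Gad cells it ran from 0.520 to 139 FPKM with a median of 30.8 FPKM. The 4 cells ranked 6, 10, 2 and 4 of 23 for this gene, so the sets overlapped: 10 cells had 50 FPKM or more, namely all 4 and 6 Gad cells. All 5 cells under 10 FPKM (cells 11, 15, 17, 21 and 22) were Gad cells. The difference of mean log2(FPKM + 1), cells without Gad minus Gad cells, was 1.31 within JCb5.2 and 2.32 within JCb6. Slc17a7 and Slc17a8, the other vesicular glutamate transporters, stayed under 1 FPKM in all 4 cells.

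**Figure D1:**
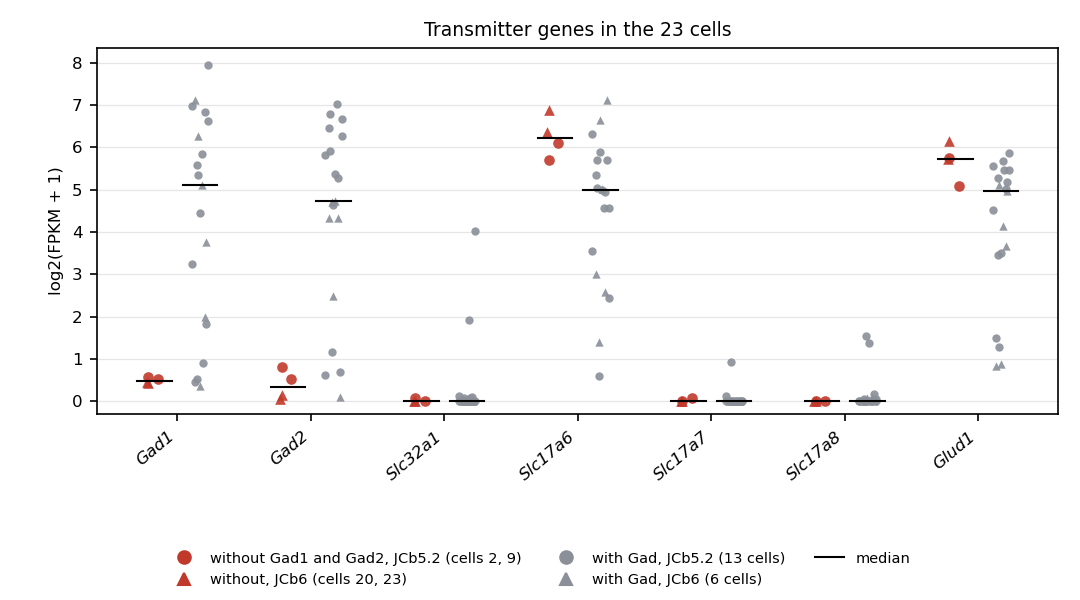
Transmitter genes in the 23 cells. The vertical axis is log2(FPKM + 1), red symbols are the 4 cells without Gad1 and Gad2, grey symbols the 19 Gad cells, circles JCb5.2 and triangles JCb6, and black lines are medians. Gad1 and Gad2 chose the cells; the 4 red Slc17a6 values, 51.0 to 117 FPKM, lie in the upper part of a grey range of 0.520 to 139 FPKM, while Slc32a1 is near 0 in both sets.

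Slc32a1 was listed at 0 in cells 2, 20 and 23 and at 0.0588 FPKM in cell 9. Of the Gad cells only 2 reached 1 FPKM of it, the highest being cell 15 with 15.3 FPKM. Genes of GABA uptake and breakdown were still found in the 4 cells. Slc6a11, a plasma membrane GABA transporter, reached 23.3 FPKM in cell 9 and 15.4 FPKM in cell 23 and was under 1 FPKM in cells 2 and 20. Abat, which breaks down GABA, was at 2.09, 0.317, 3.87 and 2.16 FPKM, against a median of 3.41 FPKM in the Gad cells. The transcription factors known from GABA neurons were near 0 in both sets. Of 16 listed, 15 were measured, 13 were listed at 0 in all 4 cells, and a single one reached 1 FPKM in any of them: Gata3, at 11.2 FPKM in cell 23. Among the 19 Gad cells too, a single one did so in any cell, Dlx1 at 2.11 FPKM in cell 7.

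Of the glutamate supply genes, Slc17a6 was the only one of 9 compared that was higher by 1 or more in both prefixes, and none was lower by that much in both. Of all 11591 genes compared, 4.74% were higher and 3.52% lower by this rule, so 1 of 9 says little of the list. Glud1, the mitochondrial enzyme that interconverts glutamate and ketoglutarate, was at 32.8, 52.4, 70.5 and 51.7 FPKM in cells 2, 9, 20 and 23, against 0.793 to 57.3 FPKM (median 30.6) in the Gad cells. Its differences were 0.96 within JCb5.2 and 2.67 within JCb6. Gls2, a glutaminase that makes glutamate from glutamine, was at 4.05 FPKM in cell 23 and under 0.1 FPKM in the other 3 cells.

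The 4 cells were among the lowest in Pomc, the precursor of α-MSH. Pomc (chromosome 12, 3954951 to 3960618, plus strand) was at 25.5 FPKM in cell 2, 51.3 FPKM in cell 9, 25.6 FPKM in cell 20 and 40.5 FPKM in cell 23. In the Gad cells it ran from 28.1 to 9534 FPKM with a median of 599 FPKM. The ranks of the 4 cells were 23, 18, 22 and 19 of 23, and all 8 cells with 1000 FPKM or more were Gad cells. The differences were -4.19 within JCb5.2 and -3.004 within JCb6. Every cell of the series had at least 25.5 FPKM of Pomc. Cartpt, which encodes the anorexigenic peptide CART, was at 1793, 368, 50.3 and 70.4 FPKM, against 54.6 to 32793 FPKM (median 554) in the Gad cells. Its differences of -1.44 and -2.03 passed 1 in both prefixes, but the one within JCb5.2 rested on cell 9, since cell 2 held 1793 FPKM and without cell 9 the gene was no longer lower by 1 in both.

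In other arcuate peptides the 4 cells fell into unlike pairs that coincide with the title prefixes. Cells 20 and 23 held 2963 and 895 FPKM of Kiss1, against 33.3 and 1.57 FPKM in cells 2 and 9. Tac2, which encodes neurokinin B, was at 1421 and 67.0 FPKM in cells 20 and 23 and at 0.445 and 0.455 FPKM in cells 2 and 9. Tacr3, the receptor of neurokinin B, reached 116 and 32.9 FPKM in cells 20 and 23, was listed at 0 in cells 2 and 9, and at most 27.0 FPKM in the Gad cells. Pdyn, the precursor of dynorphin, was at 1029 and 1117 FPKM in cells 20 and 23 and at 82.6 and 17.2 FPKM in cells 2 and 9. High Pdyn was also found with little Kiss1. Gad cell 3 had 1031 FPKM of Pdyn and 0.442 FPKM of Kiss1, and Gad cell 16 of JCb6 had 878 and 13.2 FPKM. Cells 20 and 23 thus held the peptides of kisspeptin neurons, and 3 Gad cells (8, 17 and 19) likewise had 500 FPKM or more of Kiss1. Pdyn in these 3 Gad cells was at 894, 730 and 128 FPKM. Gad cell 19 of JCb6, with 978 FPKM of Kiss1, 1206 FPKM of Tac2 and 27.0 FPKM of Tacr3, had 4.59 FPKM of Gad2 and 0.282 FPKM of Gad1, and so lay just outside the set. The other Gad cells of JCb6 (16, 18, 21 and 22) held 8.54 to 62.5 FPKM of Kiss1 and 6.23 to 42.7 FPKM of Tac2, so the 67.0 FPKM of Tac2 in cell 23 was not far above them.

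**Figure D2:**
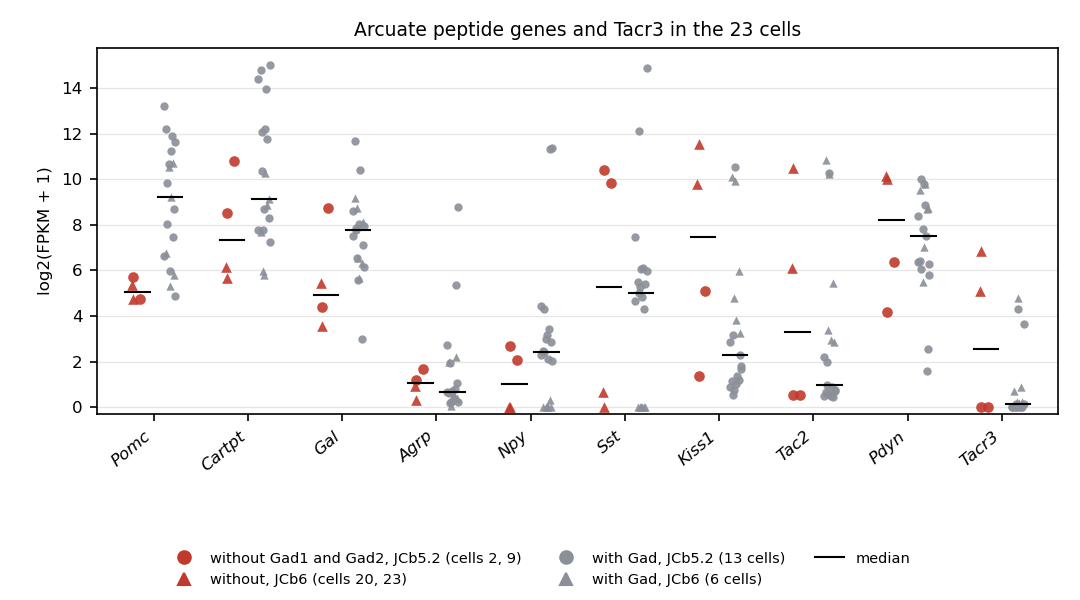
Arcuate peptide genes and the neurokinin B receptor gene Tacr3 in the 23 cells. The vertical axis is log2(FPKM + 1), red symbols are the 4 cells without Gad1 and Gad2, grey symbols the 19 Gad cells, circles JCb5.2 and triangles JCb6, and black lines are medians. The red Pomc values (25.5 to 51.3 FPKM) lie at the foot of the grey range, while in Kiss1, Tac2, Pdyn, Tacr3 and Sst the red triangles and red circles lie far apart.

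Cells 2 and 9 instead held somatostatin transcript. Sst reached 903 FPKM in cell 2 and 1342 FPKM in cell 9, against 18.6 to 29792 FPKM (median 44.4) in the 13 Gad cells of JCb5.2. Among those, cells 14 and 15 also had 500 FPKM or more. In JCb6 it was listed at 0 in all 6 Gad cells and in cell 20, and was at 0.608 FPKM in cell 23. Cell 2 held 50.001 FPKM and cell 9 held 20.04 FPKM of Mc4r, the receptor of α-MSH; these were the 2 highest values of the series, and no Gad cell was above 2.36 FPKM. Cells 20 and 23 had 0.493 and 0.466 FPKM of Mc4r. The receptor of melanin-concentrating hormone, Mchr1, was at 22.9 and 47.2 FPKM in cells 2 and 9 and listed at 0 in cells 20 and 23, as in every Gad cell of JCb6. Gad cells of JCb5.2 held up to 36.8 FPKM of it (cell 7), so it did not set cells 2 and 9 apart within their prefix.

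Several of these genes also followed the prefix in the Gad cells, and for cells 20 and 23 the prefix and the absence of Y-linked transcripts moved together with the peptides. Avp, the vasopressin gene, was at 614 and 666 FPKM in cells 20 and 23 and between 571 and 5186 FPKM in the Gad cells of JCb6, but at most 2.01 FPKM in the Gad cells of JCb5.2. Oxt, the oxytocin gene, was at 397 and 349 FPKM in cells 20 and 23, within the 322 to 3014 FPKM of the JCb6 Gad cells. The part of the prefix in the Kiss1, Tac2, Pdyn and Sst values was not tested, and cell identity and prefix cannot be told apart within 4 cells. Gal, the galanin gene, was at 429 FPKM in cell 2 and at 20.3, 10.9 and 42.9 FPKM in cells 9, 20 and 23, against a median of 214 FPKM in the Gad cells. Agrp stayed between 0.255 and 2.14 FPKM in the 4 cells and Npy between 0 and 5.38 FPKM, whereas Gad cell 15 held 433 FPKM of Agrp and 2660 FPKM of Npy. Across the 10 arcuate peptide genes, 9 could be compared: Pomc and Cartpt were lower by 1 or more in both prefixes, none was higher, beside 3.52% and 4.74% of all genes, and the median difference was -0.37, against 0.01 over all genes.

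The search across all genes used 11591 genes (loci of 300 bp or more, at or above 1 FPKM in at least 3 of 23 cells) out of 22635. Gad1 and Gad2 were left out as the rule. The difference of mean log2(FPKM + 1) was taken within each prefix, 2 cells against 13 and 2 against 6. It was at least 1 in both prefixes for 549 genes, 4.74% of those compared, and at most -1 in both for 408 genes, 3.52%. A further 929 genes differed by at least 1 in opposite directions in the 2 prefixes, about as many as the 957 that went the same way. Read against that number, the counts say little of the 4 cells as a set, and single genes are given by their values. Without cells 20 and 23, when JCb5.2 alone is left among the cells without Gad, 2160 genes were higher and 1881 lower, and for any gene the difference within JCb5.2 is its value without those cells. The split between higher and lower was 952 to 1198 with a pseudocount of 0.1 in place of 1, and 430 to 491 without cell 17, so neither direction prevailed under every choice.

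**Figure D3:**
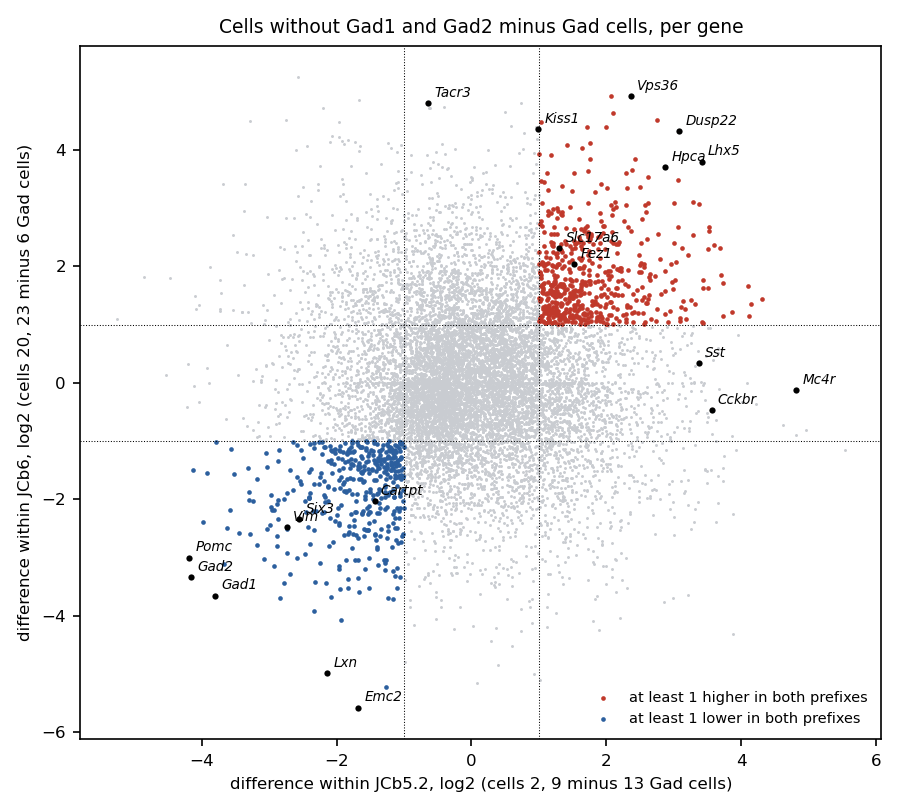
Difference between cells without Gad1 and Gad2 and Gad cells, for each gene compared, within JCb5.2 (horizontal axis, log2) and within JCb6 (vertical axis, log2). Red points are the 549 genes at least 1 higher in both prefixes and blue points the 408 at least 1 lower in both, dotted lines mark 1 and -1, black points carry gene names, and Gad1 and Gad2 are drawn though they chose the cells; the other corners are about as full as the coloured ones.

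Lhx5 stood among the genes with the largest positive difference and was present in all 4 cells. This LIM homeobox transcription factor acts in the developing forebrain (chromosome 5, 120431886 to 120441457, plus strand). It was at 29.0 FPKM in cell 2, 26.7 FPKM in cell 9, 60.2 FPKM in cell 20 and 21.9 FPKM in cell 23. In the Gad cells it ran from 0 to 79.0 FPKM with a median of 0.355 FPKM. Of 9 cells with 5 FPKM or more, 5 were Gad cells (1, 3, 8, 10 and 19). Cells 1, 3, 8 and 19 were also among those with 50 FPKM or more of Slc17a6, and the differences of Lhx5 were 3.41 and 3.80.

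Other genes with the largest positive differences included a phosphatase, sorting factors and a sugar transporter. Dusp22, a dual-specificity phosphatase, was at 22.4, 51.6, 74.3 and 37.1 FPKM in cells 2, 9, 20 and 23, against 0 to 30.5 FPKM (median 0.682) in the Gad cells, with differences of 3.08 and 4.32. Vps36, a subunit of the endosomal sorting complex, was at 11.3, 49.9, 33.9 and 54.2 FPKM against 0 to 32.9 FPKM (median 1.10). Rabif, a Rab-binding factor, was at 54.4, 67.6, 45.6 and 38.3 FPKM against 0.215 to 58.1 FPKM (median 4.79). Slc2a6, a member of the glucose transporter family, was at 42.2, 33.3, 22.6 and 30.4 FPKM against 0.0870 to 39.5 FPKM (median 0.657). In each of these 4 genes, 1 to 4 Gad cells reached the range of the 4 cells. The palmitoyltransferase gene Zdhhc22 was at 43.7, 82.2, 48.1 and 62.5 FPKM against a median of 5.17 FPKM. The non-coding transcripts E230016M11Rik and D330023K18Rik belonged to the same leading group, with differences of 3.06 and 3.48 and of 2.00 and 4.39.

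Some leading genes were carried by 3 of the 4 cells. Gdpd3 was at 65.4, 51.6 and 76.2 FPKM in cells 2, 20 and 23 and listed at 0 in cell 9. Haus8, part of the augmin complex of the mitotic spindle, was at 26.3, 31.4 and 34.3 FPKM in those cells and 0.104 FPKM in cell 9, and Pcp4l1 was at 60.1, 41.3 and 29.1 FPKM and listed at 0 in cell 9. All 3 genes lost their place among the 549 without cell 2. Hpca, a neuronal calcium sensor, was at 3.91, 154, 21.3 and 26.7 FPKM against 0 to 50.6 FPKM, and lost its place without cell 9.

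Genes whose 4 values all lay above the 19, or all below, numbered 4 in each direction, 0.0345% of the genes compared for higher and 0.0345% for lower. Fez1, an axonal transport adaptor (chromosome 9, 36843659 to 36878640, plus strand), was at 338, 274, 303 and 261 FPKM in cells 2, 9, 20 and 23. Its 19 values ran from 3.90 to 188 FPKM with a median of 131 FPKM, and the differences were 1.52 and 2.03. The lowest value was that of cell 17, and the mean of both differences fell from 1.78 to 1.40 without that cell. Cyc1, which encodes cytochrome c1 of the respiratory chain, was at 304, 261, 208 and 247 FPKM against 6.31 to 201 FPKM (median 136), and did not pass 1 in both prefixes without cell 17. Camkv, a synaptic kinase-like protein, was at 27.8, 58.7, 25.6 and 36.8 FPKM against 0.289 to 23.6 FPKM (median 12.0). Elk1, a transcription factor of the growth factor response, was at 4.72, 8.72, 5.42 and 6.19 FPKM against 0.0391 to 4.25 FPKM (median 0.305). An exon of Elk1 overlaps an exon of Uxt on the same strand, so reads of both genes cannot be told apart there. After rescaling each cell to a sum of 1000000, 2 of these 4 genes, Elk1 and Fez1, still had no overlap.

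**Figure D4:**
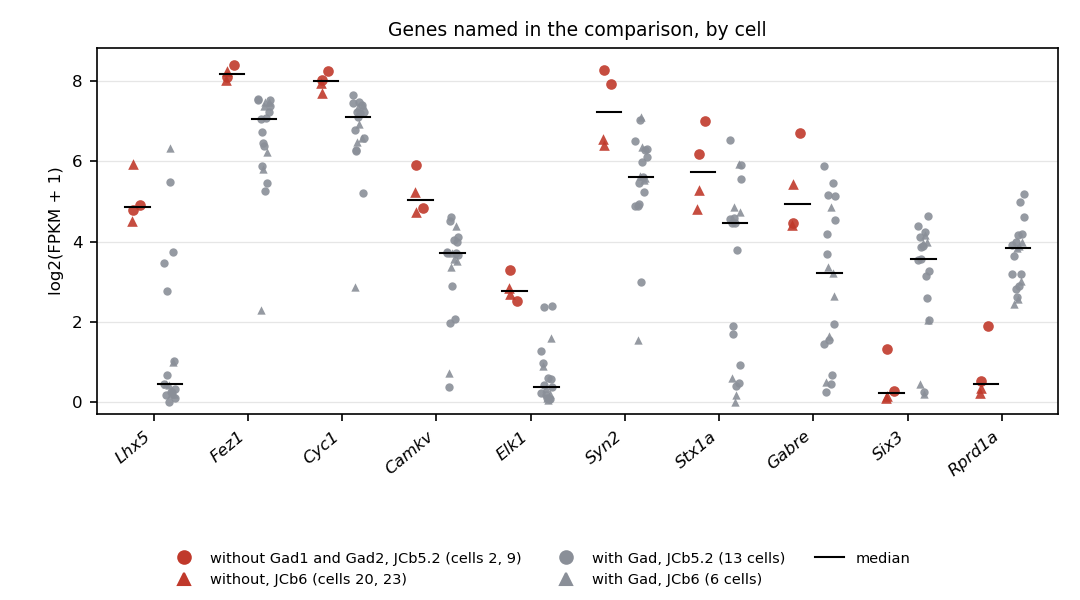
Genes named in the comparison of the 4 cells without Gad1 and Gad2 (red) with the 19 Gad cells (grey). The vertical axis is log2(FPKM + 1), circles are JCb5.2, triangles JCb6 and black lines medians; in Fez1, Cyc1, Camkv and Elk1 all 4 red points lie above the grey ones, in Rprd1a all 4 lie below, and in the other genes the sets overlap.

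Below all Gad cells lay Rprd1a, Otud4, Tubd1 and Unc13b. Rprd1a, which binds the tail of RNA polymerase II (chromosome 18, 24484962 to 24530204, minus strand), was at 2.70, 0.448, 0.266 and 0.176 FPKM in cells 2, 9, 20 and 23. The 19 Gad cells held 4.47 to 35.2 FPKM of it, with a median of 13.3 FPKM, and its differences were -2.58 and -3.01. The other 3 genes had Gad cell values close to 0 at their low ends. Otud4, a deubiquitinase, was at 0 to 0.0675 FPKM against 0.103 to 84.4 FPKM, Unc13b, a vesicle priming factor, at 0 to 0.0501 FPKM against 0.0512 to 10.6 FPKM, and Tubd1, delta tubulin, was listed at 0 in all 4 cells against a median of 0.0742 FPKM.

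Beside Pomc, the genes with the largest negative differences included Emc2, Lxn, Gpn1, Eid1 and Gstm6. Eid1, an inhibitor of differentiation, was at 0.319, 5.75, 0.660 and 1.03 FPKM in cells 2, 9, 20 and 23, against 2.32 to 78.4 FPKM (median 24.7). Ostm1, a lysosomal chloride channel subunit, was at 0.160 FPKM or less in the 4 cells, against a median of 18.3 FPKM. Vps11, a tethering factor of endosomes and lysosomes, was at 0.151, 0.154, 0.336 and 0.807 FPKM against a median of 17.6 FPKM. Emc2, a subunit of the membrane protein insertion complex, was at 76.1 FPKM in cell 2 and at 2.20, 0.698 and 2.31 FPKM in the others, against a median of 103 FPKM, and was no longer among the 408 without cell 9. Gstm6 and Lxn were likewise high in cell 2, at 64.3 and 34.7 FPKM, and at most 1.03 FPKM in the other 3 cells, against medians of 38.3 and 58.2 FPKM in the Gad cells, and both left the 408 without cell 9.

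Counting cells in place of averaging gave few genes. At or above 1 FPKM in all 4 cells and in at most 6 Gad cells were 21 genes, 0.181% of those compared. They included Elk1 (4 of 19 Gad cells), Dlk2, a Notch-related membrane protein with 8.86 to 31.0 FPKM in the 4 cells and 5 of 19 Gad cells, and Aifm1, a mitochondrial flavoprotein with 2.73 to 37.1 FPKM and 5 of 19. Icam5, an adhesion molecule of telencephalic dendrites, was at 4.68, 21.5, 30.3 and 13.3 FPKM and in 5 of 19 Gad cells. Without cell 17 there were 13 such genes, but the limit was kept as a share of the Gad cells and so admitted fewer Gad cells. The lower count thus does not show which genes rested on cell 17. Under 1 FPKM in all 4 cells and at or above it in 13 or more Gad cells were 30 genes, 0.259%. Among them Dnajc3, a chaperone of the endoplasmic reticulum, reached 1 FPKM in 17 of 19 Gad cells (median 9.52 FPKM) and was at 0.0547 to 0.599 FPKM in the 4 cells. Atf6b, a transcription factor of the unfolded protein response, reached 1 FPKM in 17 Gad cells and was at most 0.129 FPKM in the 4 cells. Bloc1s6, of lysosome-related organelle biogenesis, reached 1 FPKM in 15 Gad cells (median 14.9 FPKM) and was at most 0.590 FPKM in the 4 cells.

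Receptors for GABA were expressed in the 4 cells, as in the Gad cells. Of 15 GABA receptor genes compared, 4 were higher by 1 or more in both prefixes, 1 was lower and 10 were neither, where over all genes 4.74% were higher and 3.52% lower. The median difference of the list was 0.84, against 0.01 over all genes. Gabra2 was at 60.9, 92.7, 91.2 and 25.9 FPKM in cells 2, 9, 20 and 23, against 0.944 to 110 FPKM (median 16.3), and Gabrb1 was at 99.7, 93.3, 41.5 and 81.7 FPKM against a median of 28.7 FPKM. Gabre, the epsilon subunit, was at 104, 20.9, 41.9 and 20.2 FPKM against 0.180 to 58.3 FPKM (median 8.33), with differences of 2.48 and 2.20. Gabra5 was at 33.4, 19.9, 56.1 and 29.1 FPKM against a median of 19.1 FPKM, with differences of 1.32 and 2.29. The lower one was Gabrg3, a gamma subunit, with at most 0.124 FPKM in the 4 cells and up to 66.6 FPKM in the Gad cells (median 1.53). The place of Gabra5 was lost without cell 2 and that of Gabra2 without cell 20. The summed FPKM of the GABA receptor list was 281 to 516 in the 4 cells and 90.6 to 429 in the Gad cells. Of 19 glutamate receptor genes compared, 1 was higher in both prefixes, a share near the 4.74% of all genes, and the median difference was -0.03. It was the metabotropic Grm7, which lost its place without cell 9 or without cell 20.

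Of 20 vesicle release genes compared, 4 were higher in both prefixes and none lower, beside 4.74% and 3.52% of all genes, and the median difference was 0.52, against 0.01 over all genes. Syn2, a synapsin, was at 243, 308, 84.5 and 92.2 FPKM in cells 2, 9, 20 and 23, against 1.91 to 136 FPKM (median 48.2), but did not pass 1 in both prefixes without cell 17. Stx1a, a syntaxin of the presynaptic membrane, was at 128, 71.7, 37.7 and 26.9 FPKM against 0 to 91.0 FPKM (median 20.9), with differences of 3.12 and 2.32. Cplx1, a complexin that regulates fusion, was at 12.6, 15.8, 33.5 and 75.2 FPKM against a median of 2.28 FPKM. Vamp1 was at 17.1, 29.5 and 58.6 FPKM in cells 2, 9 and 23 and 0.0358 FPKM in cell 20, and lost its place without cell 23. Of 13 pan-neuronal and 8 housekeeping genes, none passed 1 in the same direction in both prefixes. Cell 2 stood apart in the long non-coding RNA Meg3 and in Snhg11: Meg3 was at 3.91 FPKM there and at 65.0 FPKM or more in every Gad cell, and Snhg11 was at 4.28 FPKM against 104 FPKM or more.

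Transcription factors of the arcuate nucleus differed by gene. Of 11 compared, Bsx and Nkx2-1 were higher in both prefixes and Six3 lower, beside 4.74% higher and 3.52% lower of all genes, with a median difference of -0.80, against 0.01 over all genes. Six3, a homeobox factor of the ventral forebrain (chromosome 17, 85620834 to 85626191, plus strand), was at 0.215, 1.495, 0.105 and 0.0691 FPKM in cells 2, 9, 20 and 23, against 0.145 to 23.8 FPKM (median 10.7), with differences of -2.55 and -2.35. It was at or above 1 FPKM in 16 of 19 Gad cells, and an exon of it overlaps the antisense gene Six3os1, whose reads cannot be told apart without strand. Bsx, a homeobox factor of feeding neurons, was at 61.5, 73.0 and 64.1 FPKM in cells 2, 20 and 23 but 0.228 FPKM in cell 9, and lost its place without cell 2. Gad cells held 0 to 151 FPKM of Bsx, and cells 1, 8 and 19 exceeded all of the 4, at 115, 151 and 102 FPKM. Nkx2-1, which specifies the ventral hypothalamus, was at 57.6, 45.1, 52.5 and 79.9 FPKM against a median of 37.4 FPKM, with differences of 1.07 and 1.05 that lost their place without cell 2, cell 23 or cell 17. Isl1, a LIM homeobox factor, was at 111 and 17.7 FPKM in cells 2 and 9 and under 1 FPKM in cells 20 and 23. Tbx3 was at 33.6, 104 and 27.7 FPKM in cells 2, 20 and 23 and 0.444 FPKM in cell 9.

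Of the genes listed for the neighbouring ventromedial nucleus, Fezf1 reached 1 FPKM in cell 9 alone. The list summed to 249 FPKM in cell 9 and to 6.20, 84.5 and 41.7 FPKM in cells 2, 20 and 23, against 7.57 to 263 FPKM (median 51.5) in the Gad cells, so the sum did not set cell 9 apart. Fezf1, a zinc finger factor of that nucleus, was at 60.5 FPKM in cell 9 and at most 0.534 FPKM in each of the other 22 cells. Bdnf was at 44.6 FPKM in cell 9, 11.6 FPKM in cell 20, and under 0.1 FPKM in cells 2 and 23. Among the Gad cells, Bdnf reached 21.9 FPKM in cell 3 and 8.59 FPKM in cell 1. Sox14 was at 26.7, 36.9 and 40.1 FPKM in cells 9, 20 and 23 and 0.0803 FPKM in cell 2, and Gad cells 8 and 19, which held Kiss1, also had it, at 33.3 and 51.9 FPKM. Of 6 genes of the ventromedial list compared, Sox14 and Bdnf were higher in both prefixes, beside 4.74% of all genes. Both lost that place without cell 9, and Bdnf also lost it without cell 20. Every one of the 23 cells, cell 9 included, was listed at 0 for Nr5a1, which defines that nucleus.

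Of 36 peptide and hormone receptor genes compared, none was higher in both prefixes and 1 was lower, beside 4.74% and 3.52% of all genes, with a median difference of 0.35. The lower one was Oprm1, the mu opioid receptor, with at most 0.296 FPKM in the 4 cells and up to 192 FPKM in the Gad cells (median 0.314). That highest value was in cell 17, and the mean difference of Oprm1 was -2.36 with cell 17 and -1.94 without it. Oprl1, the nociceptin receptor, was at 23.9, 132, 51.9 and 58.5 FPKM in cells 2, 9, 20 and 23 against a median of 38.0 FPKM. Genes induced by activity or by dissociation differed mostly within the set: Fos was at 782, 1120 and 1330 FPKM in cells 2, 20 and 23 and 25.0 FPKM in cell 9, against 11.2 to 2469 FPKM in the Gad cells. Arc was the 1 of 17 such genes compared that was higher in both prefixes, a share near the 4.74% of all genes.

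Markers of astrocytes, microglia and vessels on the lists were low in the 4 cells, while oligodendrocyte, hemoglobin and 1 endothelial transcript were not low in all of them. Summed over 8 astrocyte genes the values were 0.02 to 1.62 FPKM, over 8 microglial genes 0.09 to 0.58 FPKM, and over 10 vessel genes 0.19 to 3.11 FPKM. Csf1r and Cldn5, which mark microglia and endothelium, were listed at 0 in all 4 cells. The oligodendrocyte list summed to 0.78 to 63.5 FPKM, against 0.22 to 53.4 FPKM in the Gad cells, and was highest in cell 23, with 41.3 FPKM of Mbp and 13.0 FPKM of Mag. The tanycyte and ependymal list summed to 0.37 to 3.59 FPKM in the 4 cells and 0.32 to 259 FPKM in the Gad cells. Vim, its intermediate filament gene, was lower in both prefixes, at 0.295 to 0.657 FPKM against a median of 3.29 FPKM, and the defining tanycyte gene Rax was listed at 0 in all 4 cells. The red blood cell list, hemoglobin genes with Alas2, summed to 93.7 to 440 FPKM in the 4 cells and 3.45 to 2398 FPKM in the Gad cells. Near-identical copies make the split between Hba-a1 and Hba-a2 uncertain. Plvap, a gene of fenestrated endothelium named after its values were seen, was at 81.7, 71.5, 53.9 and 38.4 FPKM in cells 2, 9, 20 and 23 against 0.163 to 46.8 FPKM (median 9.60). The part of these markers in the differences above was not tested.

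Each of the 4 cells also had transcripts of its own. Between 40 and 81 genes per cell lay at least 2 (log2) above the next highest of the 23 cells, against 30 to 167 in the Gad cells. In cell 2 these included Sema3c, a secreted guidance factor, at 22.7 FPKM (next highest cell 0.0578 FPKM) and the matrix protein Smoc2 at 40.8 FPKM. Beside Fezf1, cell 9 had the histone genes Hist1h1a and Hist1h2ac at 35.2 and 23.8 FPKM. In cell 20 Rgs1, a regulator of G protein signalling, reached 172 FPKM, Rxfp1, the relaxin receptor, 47.8 FPKM and the potassium channel gene Kcnd1 32.4 FPKM. Cell 23 had the small heat shock gene Hspb3 at 53.7 FPKM and the lymphotoxin gene Ltb at 37.2 FPKM, with C1qc at 18.7 FPKM although the microglial genes C1qa and C1qb were listed at 0 there.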

How the data were processed

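Each of the 23 samples is a SmartSeq2 library of polyadenylated RNA from 1 cell, built with a NuGen Ovation kit, per the labels' protocols. The submitters' processing notes name CASAVA 1.8, TopHat, Cufflinks and the build mm10; the sources used here do not give versions of the latter tools, the annotation or any strand setting. FPKM per gene and cell is what the authors deposited, in a single table without counts, so absolute depth is unknown, and amplified copies are not separated. FPKM compares genes per length, and very abundant peptide transcripts lower all other values of a cell.

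Of 23896 rows, 12 leftover spreadsheet rows and 286 identical copies were dropped, 27 date-like names were set aside, and rows of 124 repeated symbols were summed, leaving 23373 genes. Starts were taken to count from 0 (9285 of 21491 genes began 1 lower than in RefSeq with equal ends, 262 were equal) and are printed from 1, with strand and type from GENCODE M21. Of 252 named genes, 246 were found in GENCODE, and 39 have an exon that overlaps another gene's. Plvap and C1qc were not checked for overlap. Xist, Hpca, Haus8, Lxn, Eid1, Dlk2, Syn2, Gabra5, Gabrb1, Oprm1, Gls2, Agrp, Csf1r, Dlx1 and E230016M11Rik (partner Gadd45a) have partners on the opposite strand. Without a strand setting, their reads cannot be told apart from the partner's there. Kiss1 overlaps Golt1a, Gata3 overlaps 9230102O04Rik, and Meg3 overlaps Mir1906-1 and Mir770 on the same strand, where a strand setting would not separate their reads.

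Cells were set apart at 1 FPKM of Gad1 and Gad2. Differences are of mean log2(FPKM + 1) within each title prefix; the value per gene is the mean of both. These differences understate changes of low genes. The members, the 26 gene lists and the comparisons were chosen with earlier results of these data known. Named are the GABA, glutamate and arcuate peptide lists; up to 6 members of each other list by highest value in the 4 cells, with those past 1 in both prefixes; up to 12 genes per direction by size of difference; up to 10 per cell-count rule; genes without overlap; and 8 own genes per cell. The text gives those that show how the cells differ, and some genes that the rule names are not reported here. Plvap, C1qc and Nr5a1 were added after their values were seen. Alternatives were leaving out each of the 4 cells, Gad limits of 0.5 and 2 FPKM, rescaling, other filters, a pseudocount of 0.1, prefixes pooled and presence at 5 FPKM. The script was tested on simulated data. The software was matplotlib 3.10.9, scipy 1.17.1, pandas 2.3.3 and numpy 2.4.6 under Python 3.11.15.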

Additional observations from a re-analysis of the deposited data

Results flagged for a closer look

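Of 57 gene values examined within the 4 cells, 8 had a single cell far from the other 3. The measure was Dixon's ratio of the gap to the whole range, on log2(FPKM + 1). Its usual rate of about 1 in 20 assumes normally distributed replicates, which these cells are not. Many of the genes were also named for their values in these cells, so the 8 cannot be set against that rate. Gata3 (ratio 0.990) and Gls2 (0.960) were high in cell 23 alone. Gdpd3 (0.912) and Haus8 (0.926) were low in cell 9 alone. Lxn (0.859), Gpn1 (0.866) and Gstm6 (0.908) were high in cell 2 alone, with Gpn1 at 2.46 FPKM there and at most 0.292 FPKM in the other 3 cells. Otud4 (0.947) was listed at 0 in cell 2 and at most 0.0675 FPKM in the others, a spread within the lowest values.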

How the results depend on the processing

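Slc17a6 stayed higher and Pomc lower by 1 or more in both prefixes under all 9 alternatives run for named genes. Over 56 named genes followed, none reversed its direction. Most of these genes were named for their differences in these same cells, which made a reversal unlikely beforehand. The limit of 0.5 FPKM was not among the settings followed for direction. The limit of 2 FPKM chose the same 4 cells; that of 0.5 FPKM moved cell 9 to the Gad cells and gave 51 and 69 genes by cell counts and 16 higher and 14 lower without overlap, of which 0 and 1 were among the original ones. Leaving out 1 of the 4 cells gave 52 to 65 genes at 1 FPKM in all and few Gad cells, 72 to 89 in the opposite case, 10 to 20 without overlap higher and 11 to 20 lower; with fewer cells the rules are easier to meet. Rescaling gave 806 higher and 615 lower genes, a pseudocount of 0.1 gave 952 higher and 1198 lower, and pooling the prefixes gave 1282 and 1172. Chosen after seeing the data, leaving out cell 17 gave 13 genes at 1 FPKM in all 4 cells and few Gad cells. The limit, kept as a share of the Gad cells, was stricter there. Leaving out cells 20 and 23, also chosen after seeing the data, left JCb5.2 alone among the cells without Gad. It gave 2160 higher and 1881 lower genes, since 1 prefix then sufficed. By cell counts it gave 213 and 213, and without overlap 107 higher and 119 lower. Those rules do not use the prefix, and fewer cells then had to meet them. Causes of other moves were not tested. No paired analysis was possible because the samples form 1 group and replicate numbers only name cells.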
